A study of Mus musculus with 7 samples.

Results

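The genes studied here encode the machinery that copies DNA in S phase, from the proteins that mark replication origins to those that join the new strands. They were taken by symbol from a list of 41 names, and 40 of the 41 have a row among the 23930 genes of the deposited table, while Pcna was not analysed here. Of the 40, 39 reached a mean of 1 RPM, that is, reads scaled to the size of each library, and the exception was Fen1. The 12504 genes of the table that reached this mean are called expressed genes below.

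The RNA came from cells sorted for Pax7-driven GFP from the hind legs of C57BL/6 mice, with 3 libraries in normocapnia (NC1 to NC3) and 4 in hypercapnia (HC1 to HC4). Mice of both groups were induced with tamoxifen at 12 weeks of age, breathed room air or elevated CO2 for 4 weeks and gave their cells at 16 weeks. In both groups a tamoxifen-dependent Cre expressed from Pax7 removed a stop in front of the GFP gene, so GFP marks cells that had Pax7 at induction and whatever descends from them. According to the methods, hypercapnia was 10% CO2 in a chamber, and all mice received cardiotoxin, which destroys myofibers, in the tibialis anterior and gastrocnemius 3 days before sorting. The title of the table names 40 hours instead, a conflict that was not settled. The labels do not say that each library is a separate animal, so the p-values below measure the spread between these libraries, which may in part be technical.

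Before a cell can divide, the origin recognition complex (ORC) with Cdc6 and Cdt1 loads the ring-shaped Mcm2 to Mcm7 helicase onto DNA, a step called licensing. The kinase Cdc7 with its partner Dbf4, and Cdc45 with the GINS complex, turn the loaded ring into a moving fork, where primase and the polymerases copy both strands and RPA covers the exposed single strand. Many of these genes are known targets of E2F transcription factors, and in muscle repair their transcripts are a usual sign that satellite cells, the resident muscle stem cells, have left quiescence.

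Since E2F is a known regulator of many of these genes, their promoters were read from RefSeq (build GRCm38.p6) as windows from 250 bases before to 50 bases after each start. A window was found for 31 of the 40 genes, and none was matched for Gmnn, Mcm4, Gins1, Gins2, Gins4, Rfc2, Prim2, Pole and Tipin. The letters searched for E2F, on both strands, were TTCCCGC, its relative TTGGCGC, the form TTCGCGC and the form TTGCCGC. At least 1 of the 4 occurred in 21 of the 31 genes (67.7%), against 10.9% of all 27025 genes with a window. The shorter box CCAAT, which can overlap with a match of TTGGCGC, was in 61.3% of the 31 and 41.1% of all genes, and TTTGAA, the core of the cell cycle homology region, in 19.4% and 20.2%. A match is a description of the letters and no evidence of binding.

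A window each of 6 genes is printed 5′ to 3′ in the direction of the gene, with the E2F letters in capitals. Overlapping matches such as TTCGCGCCAA, which holds TTCGCGC and the reverse complement of TTGGCGC, count as 2. Mcm5 (chr8:75109259-75109558, plus strand), Mcm6 (chr1:128359656-128359955, minus strand) and Mcm7 (chr5:138171834-138172133, minus strand) are shown as helicase subunits with 3, 5 and 3 matches. Cdc6 (chr11:98907901-98908200, plus strand) and Orc1 (chr4:108579204-108579503, plus strand) are loading factors that varied widely between the normocapnia libraries. Rpa1 (chr11:75348334-75348633, minus strand) is the gene with the smallest p below and has no match in this window.
Mcm5: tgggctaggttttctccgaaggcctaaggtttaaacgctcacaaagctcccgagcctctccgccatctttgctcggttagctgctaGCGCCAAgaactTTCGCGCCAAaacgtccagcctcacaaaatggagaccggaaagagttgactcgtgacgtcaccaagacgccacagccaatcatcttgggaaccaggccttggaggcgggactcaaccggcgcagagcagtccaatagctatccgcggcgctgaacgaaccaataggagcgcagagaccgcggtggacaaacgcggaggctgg
Mcm6: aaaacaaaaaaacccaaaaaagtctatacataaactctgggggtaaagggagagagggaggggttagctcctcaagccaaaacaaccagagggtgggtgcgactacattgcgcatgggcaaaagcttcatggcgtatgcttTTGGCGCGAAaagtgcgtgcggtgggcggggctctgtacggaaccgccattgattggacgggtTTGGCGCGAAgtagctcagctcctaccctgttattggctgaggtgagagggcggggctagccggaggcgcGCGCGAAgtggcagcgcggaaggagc
Mcm7: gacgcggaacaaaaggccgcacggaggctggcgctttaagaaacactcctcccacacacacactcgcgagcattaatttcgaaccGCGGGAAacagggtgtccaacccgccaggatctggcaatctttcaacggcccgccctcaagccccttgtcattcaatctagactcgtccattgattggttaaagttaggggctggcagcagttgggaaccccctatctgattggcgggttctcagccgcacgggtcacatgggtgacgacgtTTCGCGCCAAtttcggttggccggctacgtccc
Cdc6: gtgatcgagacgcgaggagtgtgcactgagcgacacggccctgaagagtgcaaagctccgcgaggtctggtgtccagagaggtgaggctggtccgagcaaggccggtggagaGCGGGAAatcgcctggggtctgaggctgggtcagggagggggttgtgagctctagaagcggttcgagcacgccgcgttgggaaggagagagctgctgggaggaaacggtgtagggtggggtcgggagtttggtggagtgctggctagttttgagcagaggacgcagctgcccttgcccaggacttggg
Orc1: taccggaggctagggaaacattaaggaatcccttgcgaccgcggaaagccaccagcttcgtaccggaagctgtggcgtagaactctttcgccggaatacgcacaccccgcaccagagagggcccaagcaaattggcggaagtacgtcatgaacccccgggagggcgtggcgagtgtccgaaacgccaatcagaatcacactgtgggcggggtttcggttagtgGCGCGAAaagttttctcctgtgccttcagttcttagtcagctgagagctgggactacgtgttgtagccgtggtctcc
Rpa1: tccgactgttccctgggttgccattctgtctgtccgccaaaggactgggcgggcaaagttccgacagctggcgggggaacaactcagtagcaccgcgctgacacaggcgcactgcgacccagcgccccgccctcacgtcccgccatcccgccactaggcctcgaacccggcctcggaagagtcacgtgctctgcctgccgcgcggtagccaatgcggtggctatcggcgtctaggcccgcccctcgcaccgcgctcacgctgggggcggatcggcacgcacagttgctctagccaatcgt

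The letters were set beside the expression of the same genes. Among the 30 of them that were expressed, the 20 with the letters had a median ratio of NC1 to NC2 of 2.67, and the 10 without also had 2.67. Their median log2 fold changes between hypercapnia and normocapnia were 0.56 and 0.76. These are descriptions, with no test, and several genes have more than 1 start.

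Replication genes were mostly higher in hypercapnia than in NC2 and NC3, but not, on balance, than in NC1, and few single genes passed the test. The log2 fold change (hypercapnia minus normocapnia, on log2(RPM + 1)) was above 0 for 38 of the 40 genes and below 0 for Orc4 and Gins3. Its median was 0.62, against 0.16 over expressed genes, of which 62.1% were above 0. Median-of-ratios scaling moved the median of expressed genes to 0.04 and that of the members to 0.49, and edgeR with a filter gave -0.01 and 0.47, so both medians shifted downwards together. With limma, 3 members were called higher (Orc1, Prim2 and Rpa1) and none lower at the thresholds used by the study, an unadjusted p under 0.05 and a fold above 1.5, and 4 members had a p under 0.05. Of all genes 1.43% were called higher and 1.14% lower, or 2.57% in either direction, and 2.66% were called higher among expressed genes. Of the calls over all genes 55.8% were higher, against 36.7% with edgeR with a filter and 39.8% with DESeq2. After Benjamini-Hochberg adjustment over all genes no member passed 0.05. The adjusted p was 0.65 for Rpa1, 0.752 for Prim2, 0.827 for Rfc2 and between 0.915 and 0.995 for the other members. No gene of the table passed in limma either, although 1114 had an unadjusted p under 0.05, and DESeq2 passed 29 genes, none of them a member.

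**Figure D1:**
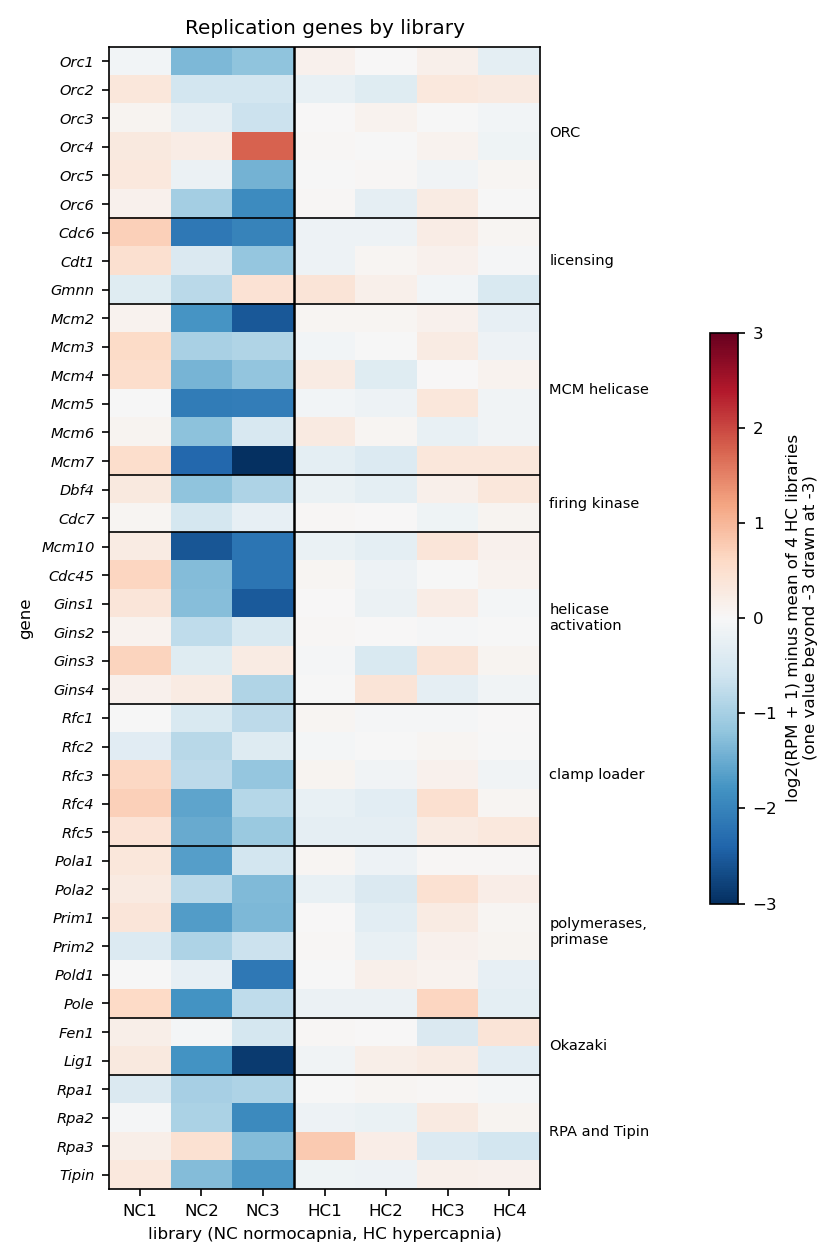
Heat map of the 40 replication genes (rows, by role) in the 7 libraries (columns). Color gives log2(RPM + 1) minus the mean of the 4 hypercapnia libraries, so blue is lower and red higher, and Mcm7 in NC3 lies beyond the scale. NC2 and NC3 are blue in most rows, while NC1 lies within or above the range of the hypercapnia libraries in most.

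The normocapnia libraries did not form 1 level. NC3 had the fewest genes at 1 RPM or more, 10619 against 11322 to 13932 in the other libraries. Its median-of-ratios factor was 0.6862, against 0.9543 to 1.2451 in the others. The part of this in the low replication values of NC3 was not tested. The 40 genes summed to 2190 RPM in NC1, 863 in NC2 and 948 in NC3, and the 4 hypercapnia libraries gave 1860, 1750, 2100 and 1950 RPM. In RPM, NC1 was thus above all hypercapnia libraries in sum, and NC2 and NC3 were below all 4. Under median-of-ratios scaling, NC2 and NC3 stayed below (886 and 1380) but NC1, at 1760, fell inside the hypercapnia range of 1740 to 1910, as it did under quantile normalization (1930, within 1760 to 1980). Gene by gene, NC1 lay above all 4 hypercapnia libraries in 19 of 40, within their range in 18 and below it in 3, counts that became 9, 24 and 7 under median-of-ratios scaling. NC2 lay below all 4 in 35 genes and NC3 in 37, while under median-of-ratios scaling the counts were 32 and 29. Both lay below all 4 in RPM in 34 members, as they did in 21.2% of expressed genes. For each library alone the share of expressed genes was not counted. In the median member, NC1 was at 122% of the hypercapnia mean, NC2 at 46.3% and NC3 at 43.6%, and median-of-ratios scaling put NC2 at 49.7% and NC3 at 65.9%. The ratio of NC1 to NC2 had a median of 2.83 over the members against 1.25 over expressed genes, with 11 members at 4-fold or more and 16 under 2-fold.

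Leaving NC1 out changed the count of calls. Without it, 29 members were called higher by limma and none lower, where 6.25% of all genes were called higher and 2.07% lower (8.32% in either direction), and 11.6% of expressed genes higher. The median log2 fold change of the members rose to 1.07, and that of expressed genes to 0.36. After adjustment, 1 member passed (Rpa1, adjusted p = 0.0497) among 8 genes. Without NC3 the members' median was 0.45 and 2 were called, Prim2 and Rpa1, where 0.982% of all genes and 1.79% of expressed genes were called higher and 1.59% of all genes lower, 2.57% in either direction. Without NC2 the median of the members was 0.40, the lowest with any 1 library left out, against 0.17 over expressed genes, and 1 member was called, Rpa1, where 2.8% of all genes were called higher. No label sets NC1 apart from the other normocapnia libraries, so all 7 libraries remain the main comparison.

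**Figure D2:**
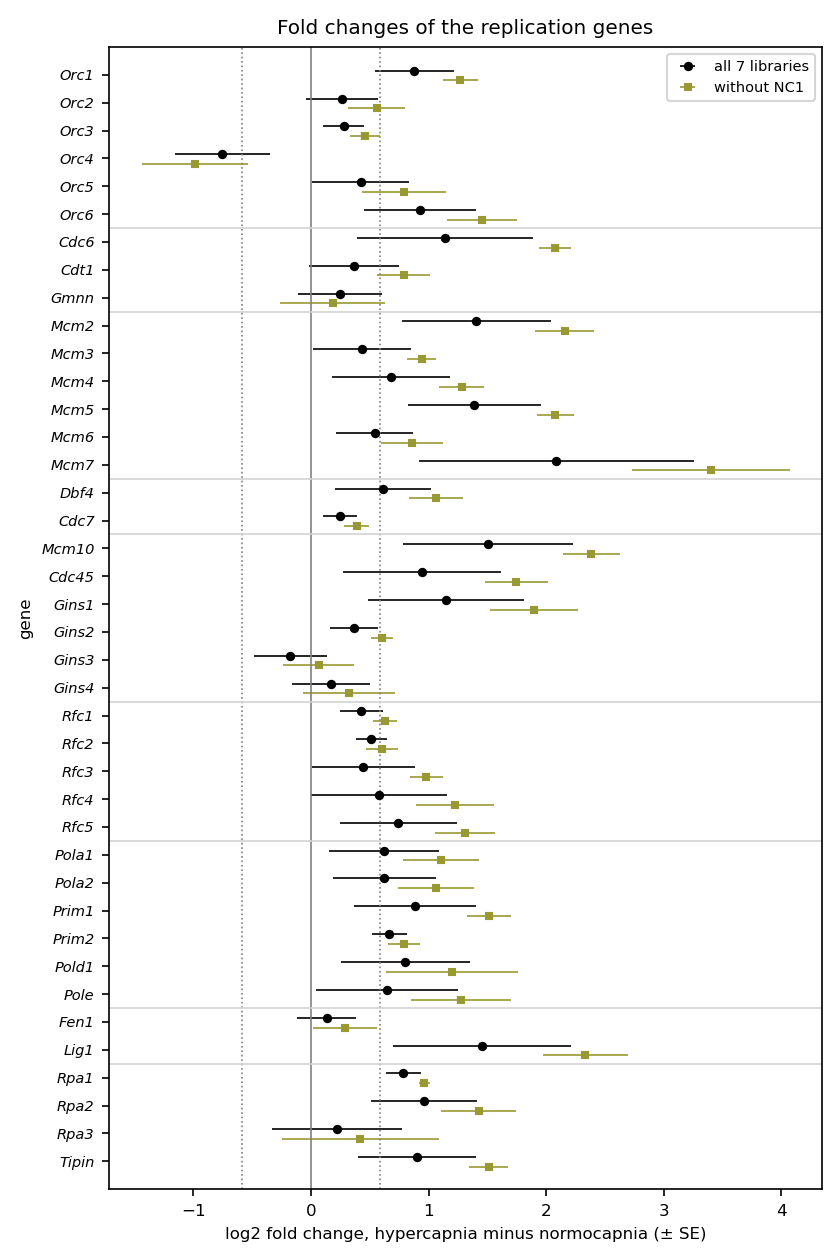
Log2 fold change of each of the 40 genes, hypercapnia minus normocapnia on log2(RPM + 1), with its standard error from limma, over all 7 libraries (black circles) and without NC1 (olive squares). Dotted lines mark a fold of 1.5, and without NC1 most genes move to the right and their error bars shorten.

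The sorted cells carried RNA of several cell types, whose marker sums are given beside the replication genes. The 10 satellite and myoblast markers summed to 3610 RPM in NC1, 237 in NC2 and 163 in NC3, and the sums in hypercapnia were 423, 380, 1240 and 938 RPM. Pax7 itself, whose earlier activity switched on the sorted GFP, was at 268, 8.25 and 4.34 RPM in normocapnia and at 21.5, 20.1, 79.5 and 59.7 in hypercapnia. The order of the satellite sum was close to that of the replication sum, with NC1 highest and NC2 and NC3 lowest in both. The 12 macrophage markers summed to 11800, 20600 and 34800 RPM in normocapnia and 19500 to 24100 in hypercapnia, with Lyz2 between 8354 and 29108 RPM and C1qa at no more than 0.452 RPM. Lyz2 carried most of this sum, and the other 11 markers summed to 3490, 7310 and 5660 RPM in normocapnia and 5030 to 7390 in hypercapnia. NC1 was thus the lowest with and without Lyz2, while NC3 was the highest only through Lyz2 and was the lowest library for 5 of the 12 genes, in C1qa jointly with HC3 at 0. In bulk RNA, fewer cells of a type and less RNA per cell cannot be told apart.

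The remaining marker lists were read in the same way, and their sums do not rank cell types by abundance, since amplicons differ. Endothelial markers (5 of 5 in the table) summed to 208, 93.1 and 87.1 RPM in normocapnia and 56.5, 43.0, 481 and 374 in hypercapnia. Neutrophil markers (6 of 6) summed to 64.8 to 288 RPM with Mpo at 0 in all libraries, fibro-adipogenic markers (6 of 6) to 935 to 2230 RPM, lymphocyte markers (5 of 6) to at most 3.05 RPM and erythroid markers (2 of 4) to at most 15.7 RPM. Of these lists 1 gene was called, Adgre1, named here after its values were seen, a macrophage surface receptor at 109, 149 and 70.5 RPM in normocapnia and 151 to 429 RPM in hypercapnia. The part of these cell types in the replication result was not tested beyond a fit with the satellite list as a covariate, in which 14 members were called, where 4.35% of all genes were called (1042 genes, 591 of them higher) against 615 genes without the covariate.

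**Figure D3:**
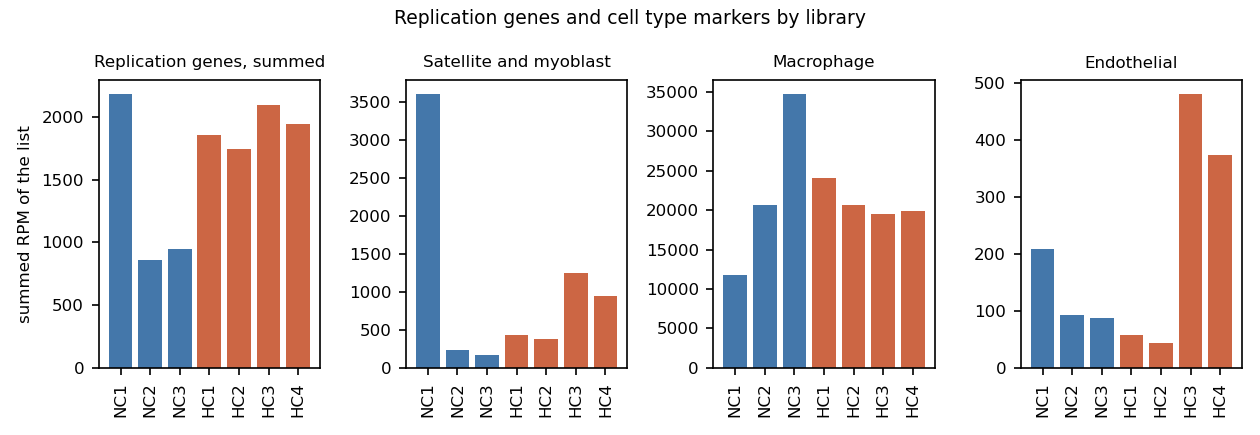
Summed RPM per library of the 40 replication genes and of the satellite and myoblast, macrophage and endothelial marker lists, with normocapnia in blue and hypercapnia in orange. Each bar is 1 library, and each panel has its own scale from 0. NC1 is highest for replication and satellite genes and lowest for macrophage genes.

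The libraries also split by Xist, the transcript of the inactive X chromosome, which was at 445 to 701 RPM in NC1, NC2, HC1 and HC2 and at no more than 0.125 RPM in NC3, HC3 and HC4. Ddx3y, a Y-linked gene, was at 0 in the first 4 and at 103 to 206 RPM in the others. Among the Xist-high libraries (2 against 2), 32 of 40 members were higher in hypercapnia, with a median log2 difference of 0.32 against -0.17 over expressed genes. Among the Xist-near-0 libraries (1 against 2), 37 of 40 were higher, with a median of 1.15 against 0.76. In the second comparison expressed genes were also higher in the median, and NC3 was the only normocapnia library. The share of expressed genes higher in hypercapnia was not counted on either side of the split. No test was run within either.

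The origin recognition complex, which binds origins and stays on DNA through much of the cycle, gave 5 genes with a value above 0 and 1 below, with a median log2 fold change of 0.35. Orc1, the subunit whose level changes over the cell cycle, was at 2.5, 0.470 and 0.620 RPM in normocapnia and at 3.08, 2.76, 3.12 and 2.03 in hypercapnia. NC1 fell inside the hypercapnia range, and NC2 and NC3 below it. Orc1 was called higher by limma, with a log2 fold change of 0.88 ± 0.34 (SE, as after each fold change below). These levels rest on 9 to 72 reads, and the call was lost when any one library other than NC1 was left out, at log2 fold changes of 0.65 to 0.98, and with edgeR at 1.26 with a filter on low counts. It was also lost with a pseudocount of 5 RPM (0.34), under quantile normalization (0.55) and with the replicate number as a block (0.98).

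Orc4, a core subunit, was the exception to the direction. It was at 46.7, 44.3 and 132 RPM in normocapnia and at 39.2, 37.7, 40.7 and 34.9 in hypercapnia. In RPM all normocapnia libraries lay above all hypercapnia libraries, but only NC3 stood far from the other 6, and the groups overlapped under median-of-ratios and quantile scaling. The log2 fold change was -0.76 ± 0.41 and -0.25 without NC3, and Orc4 was not called by limma, whereas edgeR called it lower with a filter (-1.26) and without (-1.20), as did DESeq2 (-1.31). Of the remaining subunits, Orc6, a loading cofactor, had the widest change (0.93; called under median-of-ratios scaling at 0.81 and quantile normalization at 0.64), from a mean of 10.7 ± 8.03 RPM (SD, n = 3) to 18.2 ± 2.87 RPM (n = 4), and Orc2, Orc3 and Orc5 lay between 0.26 and 0.42 without a call.

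Licensing has its loaders and a brake, and they did not move alike across the libraries. Cdc6, which loads the helicase with ORC, was at 19.7, 1.84 and 2.13 RPM in normocapnia and at 10.3, 10.4, 13.7 and 12.1 in hypercapnia. NC1 was above all hypercapnia libraries and the other two far below them, and the log2 fold change was 1.14 ± 0.75. Cdt1, the partner of Cdc6 in loading, was at 56.4, 29.7 and 17.6 RPM in normocapnia and at 35.9, 42.1, 43.7 and 39.4 in hypercapnia (0.36 ± 0.38). Geminin (Gmnn), which binds Cdt1 and prevents a second loading, was at 27.7, 20.2 and 49.5 RPM in normocapnia and at 47.5, 40.5, 34.2 and 25.9 in hypercapnia (0.25 ± 0.36). Cdt1 and Gmnn therefore overlapped between the groups, and NC3, low in Cdt1, was the highest of all 7 libraries in Gmnn. The ratio of Cdt1 to Gmnn was 2.04, 1.47 and 0.355 in normocapnia and 0.757, 1.04, 1.28 and 1.52 in hypercapnia, a ratio of amplicon reads that compares libraries and not the amounts of the 2 transcripts.

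The 6 subunits of the replicative helicase had the highest median of the role groups, 1.03, with all above 0 and none called over the 7 libraries. All 6 were called without NC1, where 11.6% of expressed genes were called higher. Mcm7 showed the widest range, at 305, 40.4 and 8.67 RPM in normocapnia and at 171, 158, 268 and 269 in hypercapnia. NC3 was at 4.0% of the hypercapnia mean and NC1 was above every hypercapnia library, so the log2 fold change of 2.09 had an SE of 1.17. Mcm5, the subunit with the smallest p, was at 40.1, 8.68 and 8.81 RPM in normocapnia and at 38.1, 36.2, 51.0 and 37.0 in hypercapnia. NC1 fell among the hypercapnia libraries, while NC2 and NC3 were at 21.4% and 21.7% of their mean. The change was 1.39 ± 0.57, which missed the p threshold, and Mcm5 was called with a filter at 1 RPM, 2 other scalings, edgeR and DESeq2 (1.11 to 1.39).

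In Mcm2, Mcm3, Mcm4 and Mcm6 as well, NC2 and NC3 lay below all hypercapnia libraries and NC1 within or above their range. Mcm2 went from 52.4 ± 51.0 RPM (SD, n = 3) to 104 ± 11.9 RPM (n = 4), a log2 fold change of 1.41 ± 0.63 that was called with a filter at 1 RPM, 2 other scalings, edgeR and DESeq2 (1.07 to 1.41), and Mcm6 from 122 ± 53.2 to 167 ± 24.97 RPM, a change of 0.54 ± 0.33. Mcm3 and Mcm4 had 0.44 and 0.68. Although the 6 proteins form 1 ring in equal numbers, the transcripts did not keep a constant proportion. Mcm7 made up 35.9%, 19.1% and 3.89% of the summed Mcm2 to Mcm7 reads in normocapnia and 25.2%, 26.2%, 36.6% and 38.5% in hypercapnia. Mcm6 made up 20.7%, 33.1% and 53.2% in normocapnia and 29.4%, 28.7%, 19.3% and 22.3% in hypercapnia. Mcm6 took the larger share where Mcm7 took the smaller, though shares of 1 sum are not independent, and the sum itself was 851, 212 and 223 RPM in normocapnia and 604 to 734 RPM in hypercapnia.

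**Figure D4:**
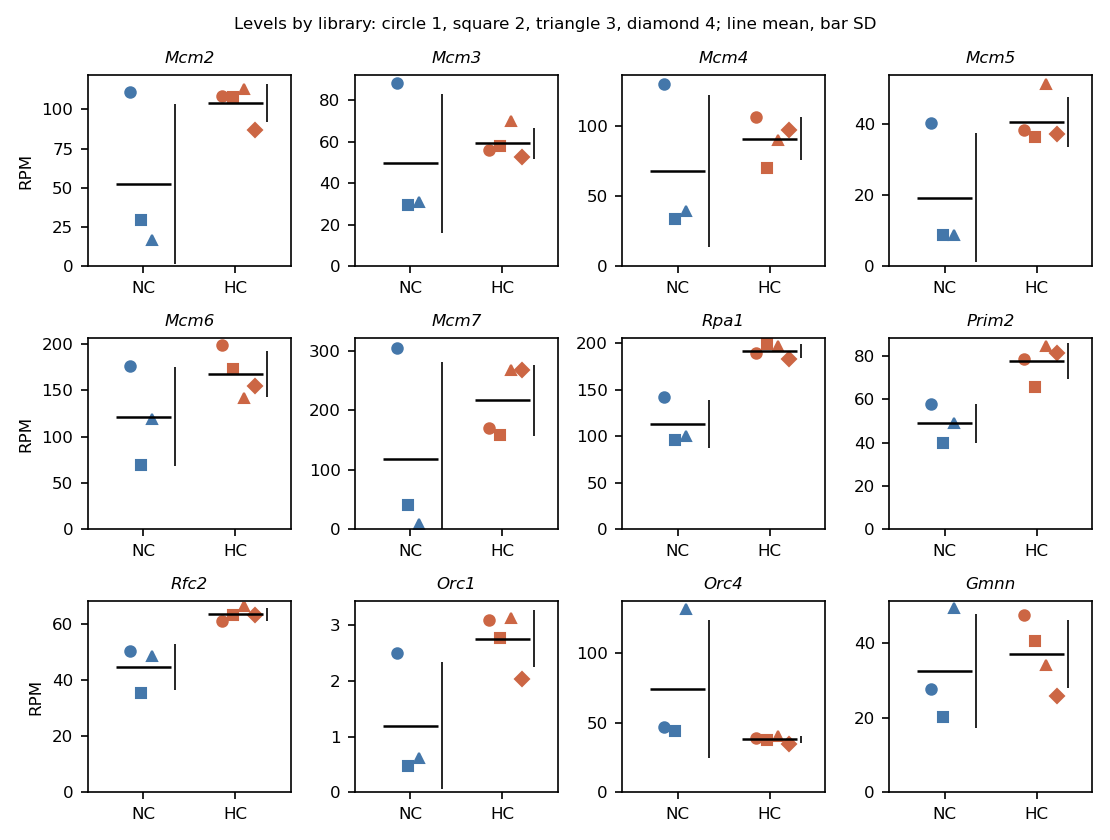
RPM of 12 replication genes in each library, normocapnia (NC, blue) and hypercapnia (HC, orange), with the mean as a horizontal line and the SD as a vertical bar (cut at 0). Marker shapes give the library number. In RPM, Rpa1, Prim2 and Rfc2 have no overlap between the groups (under median-of-ratios scaling only Rpa1 of these), while in the Mcm genes NC1 (circle) lies within or above the range of the hypercapnia libraries.

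Neither subunit of the kinase that fires origins was called over the 7 libraries. Dbf4, the activating subunit, was at 36.9, 12.3 and 15.3 RPM in normocapnia and at 25.7, 24.2, 33.2 and 38.2 in hypercapnia (0.61 ± 0.41). Its catalytic partner Cdc7 was at 16.3, 10.5 and 13.1 RPM in normocapnia and at 16.1, 15.8, 14.4 and 16.7 in hypercapnia (0.24 ± 0.14). NC2 and NC3 were at 40.6% and 50.4% of the hypercapnia mean for Dbf4, which was called without NC1 (1.07), and at 66.8% and 83.5% for Cdc7, which was not. Cdc7 had one of the narrowest spreads of all members, and NC1 was within the hypercapnia range for both.

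Among the helicase activators, Mcm10, which acts as the ring begins to unwind DNA, had the smallest p of its group. It was at 12.4, 0.898 and 1.45 RPM in normocapnia and at 8.77, 8.14, 13.5 and 11.4 in hypercapnia. NC1 was 13.8 times NC2, the highest such ratio of all members, and the log2 fold change was 1.51 ± 0.73, which was called with a filter at 1 RPM (1.51) and under quantile normalization (1.18). Gins1, a GINS subunit, was at 30.8, 9.24 and 3.37 RPM in normocapnia and at 24.2, 21.1, 28.3 and 22.8 in hypercapnia (1.15 ± 0.67). Cdc45 had 0.95, and without NC1 Mcm10, Cdc45, Gins1 and Gins2 were called, where 11.6% of expressed genes were called higher. The 4 GINS subunits form 1 complex, and differences between them were not tested. Besides Gins1, the log2 fold changes were 0.37 for Gins2 (0.7 with a pseudocount of 0.1 RPM), -0.17 for Gins3 and 0.17 for Gins4. The values of Gins3 and Gins4 were smaller in size than their SE of 0.31 and 0.33.

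The clamp loader, RFC, opens and places the sliding clamp. All 5 subunits had values above 0, from 0.43 to 0.74, beside 62.1% of expressed genes above 0. All 5 were called without NC1, where 11.6% of expressed genes were called higher. Rfc2 was at 50.3, 35.3 and 48.5 RPM in normocapnia and at 61.0, 63.1, 66.5 and 63.4 in hypercapnia. In RPM the groups did not overlap, though they did under median-of-ratios and quantile scaling. The unadjusted p passed, but the log2 fold change of 0.51 ± 0.13 lay under the fold threshold of 1.5 and Rfc2 was not called. Rfc5 was at 172, 44.9 and 59.4 RPM in normocapnia and at 107, 107, 153 and 162 in hypercapnia (0.74 ± 0.50). Here NC1 was above every hypercapnia library, unlike in Rfc2. Rfc1, the large subunit, had a change of 0.43 ± 0.18, and Rfc3 and Rfc4 had 0.45 and 0.58.

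Primase makes the RNA start of each new strand. Prim2, its large subunit, was at 57.8, 40.1 and 48.9 RPM in normocapnia and at 78.8, 65.8, 84.6 and 81.3 in hypercapnia. In RPM every hypercapnia library was above every normocapnia library, NC1 included, whereas under median-of-ratios scaling the groups overlapped. Prim2 rose by a log2 fold change of 0.66 ± 0.15 (adjusted p = 0.752 by limma). The call was lost without NC2 (0.53), under median-of-ratios scaling (0.52), and with edgeR (0.54 with a filter) and DESeq2 (0.50). Prim1, the catalytic subunit, had a larger but more variable change of 0.89 ± 0.52, from 24.1 ± 20.5 RPM (SD, n = 3) to 37.1 ± 6.02 RPM (n = 4), and was not called.

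The other 4 genes of the group code for polymerase subunits, and none was called. Pola1 and Pola2, of the polymerase that extends the primers, had log2 fold changes of 0.62 each. Pold1, the catalytic subunit of the lagging strand polymerase, had 0.80, and Pole, that of the leading strand polymerase, 0.65. In Pold1 NC1 and NC2 were close together (39.8 and 33.5 RPM) and NC3 alone was low at 8.26 RPM, against 33.8 to 44.3 RPM in hypercapnia. In Pole it was NC2 that was lowest, at 3.59 RPM.

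Of the genes that finish Okazaki fragments, Lig1, the ligase that seals them, was at 34.0, 7.23 and 2.89 RPM in normocapnia and at 25.4, 31.1, 33.1 and 21.9 in hypercapnia. NC1 was the highest of all 7 libraries and NC3 the lowest, and the log2 fold change was 1.46 ± 0.76. Fen1, the flap endonuclease, was near the limit of detection, at 0.624, 0.385 and 0 RPM in normocapnia and at 0.471, 0.452, 0.062 and 0.880 in hypercapnia. A library had at most 14 reads of it, and the 0 reads in NC3 allow up to 0.207 RPM, counting error only, so no difference could be read for Fen1 at this depth.

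RPA coats single-stranded DNA at the fork and in repair. Rpa1, its large subunit, had the smallest p of all 40 genes and was at 142, 95.5 and 100 RPM in normocapnia and at 189, 199, 196 and 183 in hypercapnia. Every hypercapnia library was above every normocapnia library, and the 4 hypercapnia values lay in RPM within 1.09-fold of each other. The mean went from 113 ± 25.8 RPM (SD, n = 3) to 192 ± 7.43 RPM (n = 4), and Rpa1 rose by a log2 fold change of 0.78 ± 0.15 (adjusted p = 0.65 by limma). NC1 was at 0.742 of the hypercapnia mean, the lowest such value of the members, whereas in the Mcm genes it was at 0.987 to 1.49 of it. Rpa1 was called under all alternatives run.

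The other RPA subunits were not called over the 7 libraries. Rpa2, which is phosphorylated at damaged forks, had a log2 fold change of 0.96 ± 0.45, from 23.4 ± 15.0 RPM (SD, n = 3) to 40.9 ± 6.51 RPM (n = 4), and was called under 2 other scalings, edgeR and DESeq2. Rpa3, the small subunit, had 0.22 ± 0.55 and the widest spread of log2(RPM + 1) within hypercapnia. Tipin, which with Timeless protects stalled forks, had 0.90 ± 0.50, with NC2 and NC3 at 39.4% and 29.2% of the hypercapnia mean.

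Counted by overlap of the values alone, Rfc2, Prim2 and Rpa1 were higher in every hypercapnia library, and Orc4 was lower. This held in RPM, and the genes changed with the scaling. Under median-of-ratios scaling Mcm5, Rfc1, Rpa1 and Rpa2 were apart in the higher direction, and under quantile normalization Orc6, Mcm5, Mcm10, Rfc1, Prim2, Rpa1 and Rpa2, with no member apart in the lower direction under either. Rpa1 was apart under all 3. Of the expressed genes, in RPM, 4.09% were apart in the higher and 3.63% in the lower direction, and under median-of-ratios scaling 3.42% and 4.3%, and 3.9% and 4.15% under quantile normalization. Without NC1, 34 members were apart in the higher direction and 1 in the lower, where 21.2% of expressed genes were apart in the higher direction.

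Within hypercapnia the replication genes kept a narrow range. Over the 39 expressed members, the highest hypercapnia library was a median of 1.39 times the lowest, from 1.07 (Gins2) to 3.07 (Rpa3), and in 23 genes the ratio was under 1.5. The SD of log2(RPM + 1) had a median of 0.206 in hypercapnia and 0.94 in normocapnia, and was wider in normocapnia in 39 of 39 genes. Over all expressed genes the medians were 0.291 and 0.682, and 81.1% were wider in normocapnia. Normocapnia was thus the more variable group in general, by a median ratio of 2.27 over these genes and of 4.99 over the replication genes. Under median-of-ratios scaling the ratios were 2.18 and 3.65, with 36 of 39 members wider in normocapnia, and under quantile normalization 1.93 and 3.05, with 34 of 39. The 4 hypercapnia libraries were not evenly apart, since HC1 with HC2 and HC3 with HC4, each alike in Xist, differed by a chi-square over degrees of freedom of 24.6 and 27.3 over all genes, and the other pairs of libraries by 105 to 528. The ratio of spreads was not tested, and the replication genes share the same 7 libraries and so are not independent of each other.

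**Figure D5:**
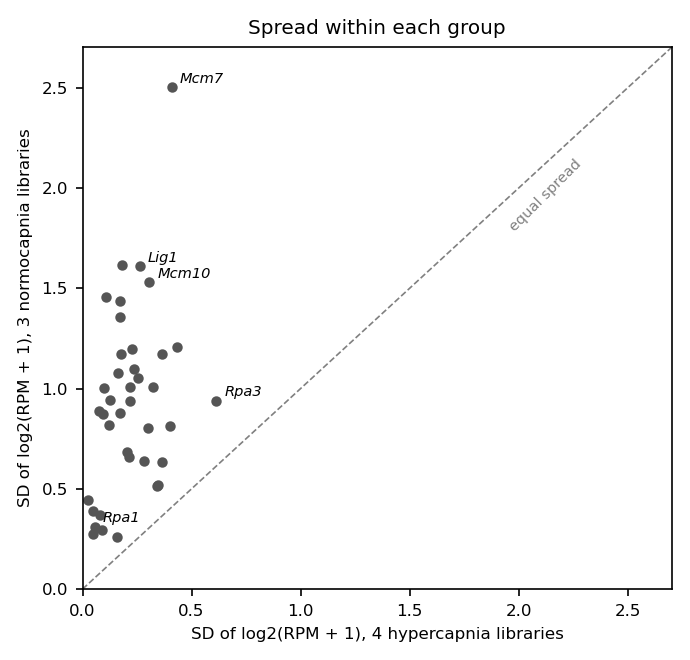
SD of log2(RPM + 1) over the 3 normocapnia libraries (vertical) against that over the 4 hypercapnia libraries (horizontal), 1 point per expressed replication gene. The dashed line marks equal spread, and in RPM all 39 points lie above it (36 under median-of-ratios scaling), Mcm7 highest.

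Genes with related work were read from 4 further lists, none of which had a gene called over the 7 libraries, where 2.57% of all genes were called. Of 25 other replisome genes in the table (of 26 listed), 17 had values above 0 and 8 below, with a median log2 fold change of 0.29, beside 62.1% above 0 and a median of 0.16 over expressed genes. Without NC1, 9 of them were called higher and 1 lower, with a median of 0.62, where 6.25% of all genes and 11.6% of expressed genes were called higher, 2.07% of all genes lower, and the median of expressed genes was 0.36. Timeless, the partner of Tipin, was at 11.3, 3.16 and 1.65 RPM in normocapnia and 9.34 to 11.9 in hypercapnia (1.19 ± 0.53). Mcmbp, which binds Mcm subunits outside the loaded ring, went the other way and did not overlap between the groups in RPM, though it did under median-of-ratios scaling, at 136 to 206 RPM in normocapnia and 93.9 to 132 in hypercapnia (-0.56 ± 0.20), a change under the fold threshold. Clspn, a checkpoint adaptor at the fork, had 0.76, Topbp1, which helps to activate the helicase, had 0.27, and Top1, which relaxes DNA ahead of the fork, had -0.45 with NC3 highest at 553 RPM.

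Of the 25 genes that control S phase, 16 had values above 0 and 9 below, with a median of 0.33, again beside 62.1% of expressed genes, and 10 were called higher and 1 lower without NC1, beside the same 6.25% and 2.07% of all genes. E2f1, an activator of the replication genes, was at 36.2, 27.9 and 9.78 RPM in normocapnia and at 46.5, 59.4, 49.0 and 38.9 in hypercapnia. Its groups did not overlap, with a log2 fold change of 1.11 ± 0.46 that was not called. Rbl2, a pocket protein that represses E2F targets in quiescence, was at 33.5, 34.0 and 75.7 RPM in normocapnia and 24.7 to 27.7 in hypercapnia (-0.74 ± 0.31), again with no call and with no overlap in RPM, though with overlap under median-of-ratios scaling. Cdk6 and Cdk4, kinases of the step into S phase, had -0.22 and 0.67, Ccnd3, one of their cyclins, 0.14, and Ccna2, the cyclin of S phase and G2, 1.64 ± 1.24 with NC1 at 379 RPM and NC2 at 11.2 RPM.

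The 10 genes that copy chromatin with the DNA all had values above 0, with a median of 0.75, against 62.1% above 0 among expressed genes, and 7 of them were called higher without NC1, against 11.6% of expressed genes. Among them, Uhrf1, which guides the methyltransferase Dnmt1 to new DNA, had 1.89 ± 0.94, Chaf1b, of the histone chaperone CAF-1, 1.39 ± 0.69, Dnmt1 itself 0.53 ± 0.29 and Supt16, of the chaperone FACT, 1.06 ± 0.91. Of 8 general proliferation markers, 7 were in the table and all 7 had values above 0, with a median of 1.6 that became 2.76 without NC1, where all 7 were called, against a median of 0.36 and the same 11.6% for expressed genes. Cdk1, the kinase of mitotic entry, was at 58.7, 9.79 and 7.64 RPM in normocapnia and at 38.1, 34.6, 83.2 and 55.2 in hypercapnia (1.52 ± 0.77). Plk1, Top2a and Birc5, of mitosis, had 1.75, 1.8 and 1.6. The order of NC1 above NC2 and NC3 was thus shared by the markers named here and most of the replication genes.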

How the data were processed

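AmpliSeq libraries were sequenced on an Ion S5 system, and the authors deposited a single table of RPM, reads scaled to the reads assigned to the panel. Each gene has its own amplicon, so values compare libraries and not genes with each other. Neither the aligner nor the build is given in the sources used. Whole reads were recovered from the RPM steps (100% of values whole within 0.05 reads), giving 14527445 to 23388710 reads per library, so that 1 read was worth 0.0428 to 0.0688 RPM and a floor of 3 reads 0.128 to 0.207 RPM, counting error only. None of the 21 library pairs agreed within sampling noise. Hypercapnia was compared with normocapnia in a two-sided limma fit (version 3.58.1, R 4.3.3) of log2(RPM + 1) for all 23930 genes, without a filter or covariates and with Benjamini-Hochberg adjustment over all genes. Alternatives were a pseudocount of 0.1 or 5 RPM, keeping expressed genes alone, median-of-ratios or quantile scaling, edgeR 4.0.16 and DESeq2 1.42.0 on the recovered reads, leaving out each library and a replicate block. Fits with the satellite marker list or Xist as a covariate were added after seeing the data. RPM in every library was given for members called or apart, for the member with the highest mean and the smallest p of each role group, and for all members of groups of 3 or fewer. For the other lists, the 3 genes of smallest p and the 3 of highest mean were named. The members and all lists were chosen with earlier results of these data known. The limma fit was checked on simulated reads with equal dispersion in both groups, so the check does not cover the wider spread of normocapnia seen here.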

Additional observations from a re-analysis of the deposited data

Results flagged for a closer look

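In 3 of 40 members 1 hypercapnia library stood far from the other 3 for the width of the group, which chance gives in about 1 in 20 groups of 4 and which was seen in 8.09% of the 12504 expressed genes, so the share is no larger than in the table at large. These were Mcm5 in HC3 at 51 RPM, above 36.2 to 38.1 RPM in the others, Pole in HC3 at 23.9 RPM, above 12.1 to 13.1, and Pola1 in HC2 at 23.1 RPM, below 26.5 to 26.8. The 3 normocapnia libraries are too few for the same check.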

How the results depend on the processing

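Over all genes limma on the 7 libraries called 615, against 1049 with edgeR without a filter, 1304 with DESeq2, 1042 with the satellite list as a covariate and 1316 with Xist as one. Leaving out 1 library gave 376 (HC2) to 1990 (NC1) calls, with 385 without HC1 and 1205 without NC2. Of the members, 3 were called by that fit and 6 with a filter at 1 RPM (558 of the 12504 genes tested). Median-of-ratios scaling called 6 (612 of all genes) and quantile normalization 7 (693 of all genes). With edgeR 5 were called with a filter (802 of the 13293 genes tested) or without, 4 higher and 1 lower in each. DESeq2 called 6 (5 higher and 1 lower), and the fit with the satellite list as a covariate called 14. Leaving out 1 library gave 1 (NC2) to 29 (NC1) member calls. Members with no overlap between the groups numbered 4 in the deposited values and 7 under quantile normalization. They numbered 4 to 35 when 1 library was left out, the highest without NC1. Of expressed genes, 4.09% were apart higher and 3.63% lower in the deposited values, and 3.9% and 4.15% under quantile normalization. Without NC1, 21.2% of expressed genes were apart higher. The median of the members and the number above 0 kept their direction under all alternatives run.

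Single members changed sign when 1 library was left out, Orc5 (-0.07 without NC3 to 0.79), Cdt1 (-0.03 without NC3 to 0.79), Gmnn (-0.03 without NC2 to 0.59), Gins3 (-0.45 to 0.07 without NC1), Gins4 (-0.20 without NC3 to 0.39), Fen1 (-0.06 without NC3 to 0.29) and Rpa3 (-0.31 without NC3 to 0.57, -0.04 without HC1). Signs also changed for Gins4 (-0.12) and Rpa3 (-0.17) under quantile normalization and for Gmnn with edgeR with a filter (-0.03) and DESeq2 (-0.08). The causes were not tested. Of the single-gene values under alternatives, 629 kept their call and direction, 61 gained and 16 lost a call. Same-numbered libraries of the 2 groups correlated at -0.349, 0.503 and -0.044 in their deviations from the group means. Pairs with different numbers ran from -0.42 to 0.452. No label states a pairing, and these few values cannot settle whether the numbers pair the libraries. With the replicate number as a block, 2 members and 598 genes were called, with a median of 0.59 over the members. Depth limits Fen1, and also Orc1 and Gins2, which rest on at most 72 reads in a library.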
